A study of Bos taurus with 15 samples.

Results

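The 36 genes described here encode the parts of epithelial cell junctions and of the apical polarity machinery. They were taken by gene symbol from a fixed list, which was chosen with earlier results of these data known. All 36 were found among the 17259 genes of the deposited count table. They were divided by role into 8 genes of the adherens junction and its accessory adhesion molecules, 6 of the desmosome, 14 of the tight junction, 7 of the polarity complexes and 1 of the gap junction. The samples were day 7 blastocysts of cattle (Bos taurus), whose poly(A) RNA was sequenced in 3 groups of 5 libraries. The in vivo group was collected as blastocysts, and the manual and automatic groups were cultured in vitro in SOF medium (synthetic oviduct fluid), after the cumulus cells around the zygote had been removed manually or automatically. The labels give no breed, no genotype and no culture or collection day other than day 7. They name blastomeres as well as blastocysts, and speak of zygotes where the series title speaks of oocytes. They count 5 blastocysts per group without saying whether a library holds 1 blastocyst or several, and nothing says that the libraries came from separate cultures, so the spread that p-values rest on may be technical and is that of these libraries alone. The comparison of automatic with manual addresses whether the way of removing the cumulus bears on the blastocyst transcriptome, and the in vivo group gives the reference.

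The trophectoderm, the outer layer of the blastocyst, is the first epithelium of the embryo. Its cells are joined by adherens junctions, in which E-cadherin binds catenins and actin, by desmosomes, which anchor keratin filaments, and by tight junctions, which seal the layer so that fluid can collect in the blastocoel. Complexes of PAR and Crumbs proteins mark the apical side of these cells and place the junctions at its border. The inner cells of the blastocyst carry E-cadherin as well but lack such a sealed apical surface.

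The summed counts of a library lay between 17.96 and 41.97 M (1 M is 1e6). Genes with at least 10 counts numbered 6977 to 8547 in 5 libraries, which were libraries 2 and 4 of the automatic group, 2 of the manual group and 2 and 4 of the in vivo group, and 9900 to 12611 in the other 10. These 5 are called low-detection libraries, and many results are also given without them. Trophectoderm markers, 14 genes that include the keratins KRT8, KRT18 and KRT19, were all found in the table, and their summed level ranged from 4792 to 14701 CPM after automatic denudation, 8450.4 to 35462 CPM after manual denudation and 14010.2 to 32748 CPM in vivo (CPM, counts per 1e6 of the scaled library total). CPM are not divided by gene length, so levels are compared only within a gene. The median of this sum was 9586, 11942 and 24726 CPM in the same order. Epiblast markers summed to 808 to 2576, 726 to 3142 and 816 to 3357 CPM in the same order (8 of 10 in the table), and hypoblast markers to 309 to 789, 219 to 469 and 294 to 535 CPM (9 of 9). Cumulus markers summed to at most 43.6, 138 and 224 CPM (12 of 13 in the table), with FOXL2 at 0 in every library. Stromal markers summed to at most 234, 511 and 35.2 CPM (6 of 6), with COL3A1 and POSTN at 0 in vivo. Blood cell markers summed to at most 197, 97.6 and 37.2 CPM (4 of 5), with PTPRC at 0 in every library. In bulk RNA, fewer cells of a type and less RNA per cell cannot be told apart.

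All 36 genes passed the filter on low counts and were tested, and 0 of them passed the test in any comparison. A gene was called when its edgeR adjusted p, taken over all 11578 genes tested, was under 0.05. In automatic against manual denudation 0% of all genes were called, in the mean of both in vitro groups against in vivo (in vitro against in vivo below) 0.0173%, in automatic against in vivo 0.0173% and in manual against in vivo 0%, so that no call among 36 genes sits at the background. At an unadjusted p under 0.05 there were 2 of the 36 in automatic against manual (5.56%, against 1.48% of all genes) and 4 in automatic against in vivo (11.1%, against 5.36% of all genes). There were 0 for in vitro against in vivo (6.13% of all genes) and 0 in manual against in vivo (3.39% of all genes). In the other 10 libraries 0 of the 36 were called, and partly other genes had an unadjusted p under 0.05. These were DSC2, F11R and CLDN3 in automatic against manual (8.33%, against 4.08% of all genes), and CDH1, DSC2, F11R and CRB3 in automatic against in vivo (11.1%, against 7% of all genes). There were 0 for in vitro against in vivo (8.33% of all genes), and in manual against in vivo there was GJA1 alone (2.78%, against 7.41% of all genes). No junction or polarity gene had groups of libraries that did not overlap, where this held for 0.665% of all genes in automatic against manual, 0.475% for in vitro against in vivo, 2.07% in automatic against in vivo and 1.36% in manual against in vivo. Positive differences below are higher in the group named first. The comparisons with in vivo share the same 5 in vivo libraries and are not independent of each other.

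The median log2 difference of the 36 genes was -0.15 in automatic against manual, -0.06 for in vitro against in vivo, -0.20 in automatic against in vivo and -0.01 in manual against in vivo. Over all genes tested the medians were -0.05, -0.04, -0.06 and -0.02 in the same order. In automatic against manual 11 of the 36 lay higher and 25 lower, but 17 lay higher and 19 lower without the low-detection libraries, 16 and 20 when scaled by library size alone, and 19 and 17 without manual 3. The intervals were narrower for these genes than for genes at large, with no matching on level. The 95% interval of the difference lay within 4-fold for 21 of the 36 in automatic against manual (58.3%, against 24.0% of all genes) and for 21 for in vitro against in vivo (58.3%, against 26.8%). Within 2-fold it lay for CDH1, EPCAM and PKP2 in automatic against manual, and for CDH1, CTNNA1, CTNNB1, EPCAM, PKP2, CLDN6 and PRKCI for in vitro against in vivo. The intervals of the other genes reached past 2-fold. Leaving out the low-detection libraries changed these sets. It gave CDH1, CTNNB1, DSG2, EPCAM, MARVELD2, PATJ and PKP2 in automatic against manual. For in vitro against in vivo it gave CGN, CLDN6, DSG2, EPCAM, MARVELD2, OCLN, PKP2, PRKCI and PRKCZ. In that comparison the intervals of CDH1, CTNNA1 and CTNNB1 then reached past 2-fold, up to log2 1.12, 1.06 and 1.09.

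**Figure D1:**
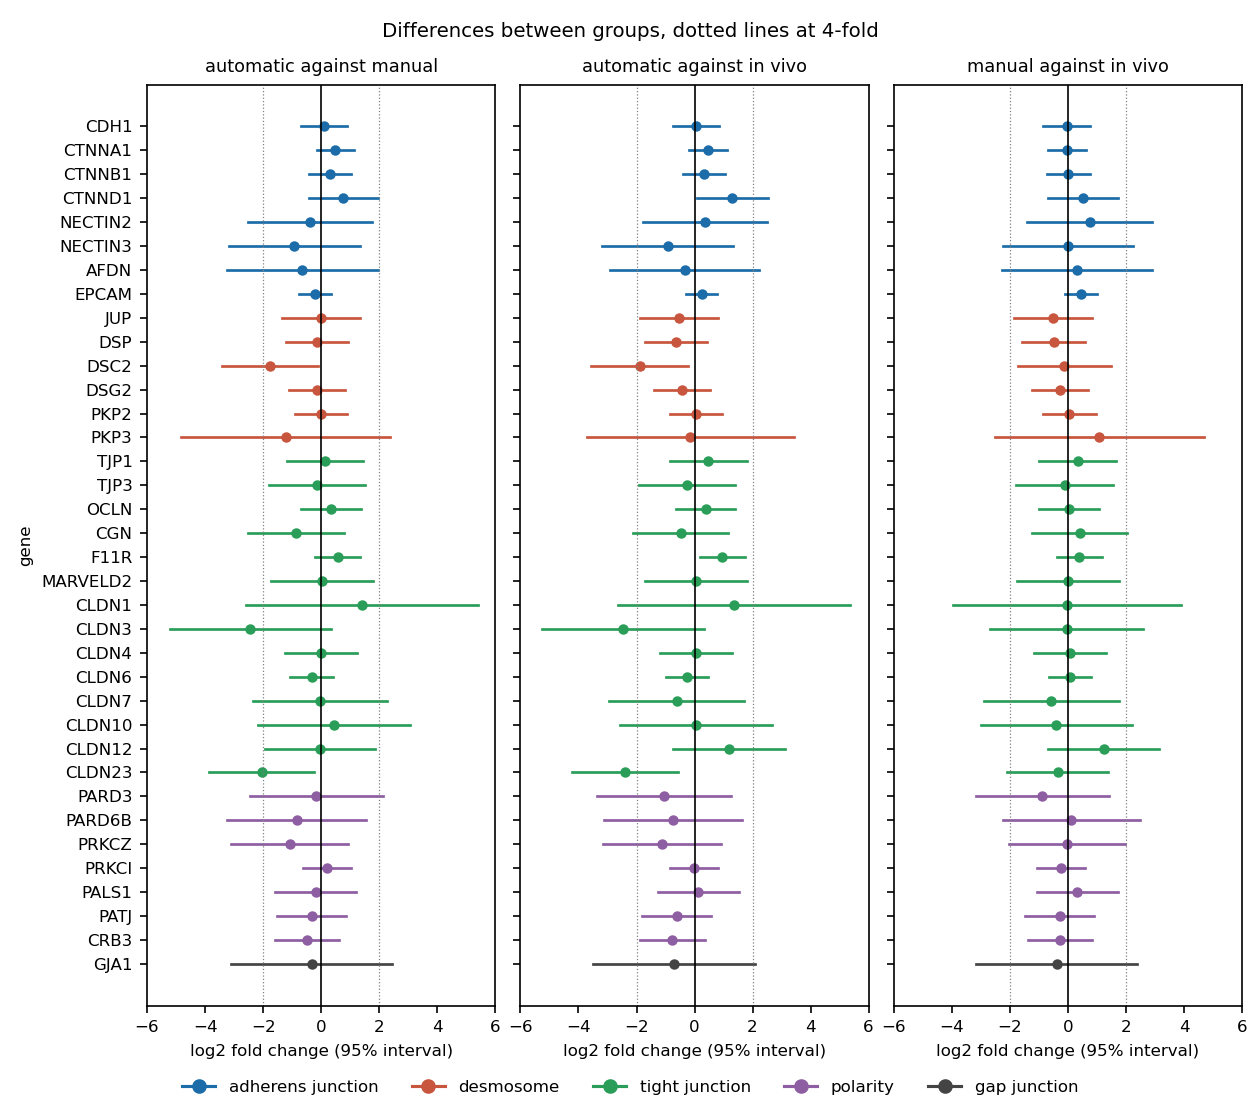
Log2 fold change (x axis) of each of the 36 genes (y axis) in 3 comparisons of 5 against 5 libraries, as a point with its 95% interval from the edgeR fit and coloured by class, with dotted lines at 4-fold. The intervals of DSC2 and CLDN23 lie below 0 in automatic against manual, those of DSC2 and CLDN23 below 0 and of CTNND1 and F11R above 0 in automatic against in vivo, and all 36 intervals cross 0 in manual against in vivo.

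Among adherens junction genes, E-cadherin and the adhesion molecule EPCAM had intervals within 2-fold over all libraries in automatic against manual and for in vitro against in vivo, and the catenin CTNND1 lay higher in most automatic libraries than in vivo without passing the test. CDH1, which encodes E-cadherin, lay at 1365, 325, 1049.6, 701 and 891 CPM in automatic libraries 1 to 5. It lay at 1076, 442, 1117, 742 and 646 CPM in manual libraries 1 to 5 and at 683, 1482, 819, 633 and 542 CPM in in vivo libraries 1 to 5, the order used throughout. The groups overlapped, and both the lowest and the highest of the 15 values came from low-detection libraries, automatic 2 and in vivo 2. CDH1 differed by log2 0.11 ± 0.38 (SE) in automatic against manual (95% interval -0.70 to 0.91) and by 0.01 ± 0.33 for in vitro against in vivo (95% interval -0.69 to 0.70). With the low-detection libraries left out, its difference between in vitro and in vivo was 0.55 ± 0.26 (edgeR adjusted p = 0.62), and in automatic against in vivo it was 0.71 ± 0.30 (95% interval 0.05 to 1.37, edgeR adjusted p = 0.665) in place of 0.06 ± 0.38 over all libraries. These values came with means of 1102 ± 241 CPM after automatic (SD, n = 3), 895 ± 236 CPM after manual (n = 4) and 681 ± 138 CPM in vivo (n = 3).

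The catenins link cadherin to the cytoskeleton. CTNNA1, or alpha-catenin, which binds actin, had means of 547 ± 178, 388 ± 99.1 and 395 ± 84.96 CPM in the automatic, manual and in vivo groups (SD, n = 5). CTNNB1, or beta-catenin, which also serves WNT signalling, had means of 506 ± 159, 409 ± 194 and 404 ± 106 CPM in the same order. The mean of CTNNA1 was highest in the automatic group, above the others by more than their SDs and by less than its own, and its difference from in vivo was log2 0.47 ± 0.31 (edgeR adjusted p = 0.9997), or 0.71 ± 0.33 with low-detection libraries left out. For CTNNB1 the gaps between group means were smaller than the SD of each group. CTNND1 encodes p120-catenin, which holds E-cadherin at the membrane. It lay at 116, 215, 181, 103 and 127 CPM after automatic denudation, at 119, 18.98, 186, 38.3 and 72.3 CPM after manual denudation and at 72.6, 22.1, 111, 50.04 and 45.1 CPM in vivo. In 4 of 5 automatic libraries it was above the highest in vivo library, and the remaining one, automatic 4, was below in vivo 3. The difference in automatic against in vivo was log2 1.302 ± 0.58 (edgeR adjusted p = 0.91), against 0.53 ± 0.57 in manual against in vivo, 0.77 ± 0.57 in automatic against manual and 0.92 ± 0.52 for in vitro against in vivo. The value in automatic against in vivo was 0.91 ± 0.52 when low-detection libraries were left out.

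The other adhesion molecules of this class ranged from EPCAM, with the smallest SD of log2 CPM of the 36 over all libraries, to genes that were uneven between libraries. EPCAM, a homotypic adhesion molecule of epithelia, lay at 738, 911, 1144, 1049.8 and 1007 CPM after automatic denudation, at 924, 1085, 1686, 842 and 1064 CPM after manual denudation and at 945, 882, 612, 827 and 837 CPM in vivo. Its highest value, in manual 3, was 2.76 times its lowest, in vivo 3, and the low-detection libraries lay between them. EPCAM differed by log2 -0.21 ± 0.26 in automatic against manual and 0.35 ± 0.23 for in vitro against in vivo (95% interval -0.13 to 0.82, edgeR adjusted p = 0.99). NECTIN2, an immunoglobulin-type adhesion molecule, had means of 101 ± 66.6, 132 ± 96.5 and 78.7 ± 55.7 CPM in the automatic, manual and in vivo groups. These means hide 1 low-detection library in each group near 0, automatic 4 at 0.774 CPM, manual 2 at 2.72 CPM and in vivo 2 at 2.45 CPM. NECTIN3, its partner across the cell border, had means of 7.75 ± 6.71, 14.8 ± 11.5 and 14.7 ± 11.2 CPM. AFDN, or afadin, which ties nectins to actin, had means of 13.2 ± 13.2, 20.6 ± 16.05 and 16.7 ± 13.1 CPM and 0 counts in automatic 2. For NECTIN2, NECTIN3 and AFDN the groups overlapped and the spread was of the order of the mean.

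Of the 8 adherens junction genes 6 lay higher in vitro than in vivo and 2 lower, with a median log2 difference of 0.19, and 0 were called. Scaling by library size alone placed 7 higher and 1 lower, and size factors by relative log expression 5 higher and 3 lower. With only the other 10 libraries all 8 lay higher, with a median of 0.42 against -0.01 over all genes tested, and again 0 were called.

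Among desmosome genes, the cadherin DSC2 lay lowest after automatic denudation while its partner DSG2 did not differ beyond its spread. Desmocollin 2, encoded by DSC2, is 1 of the 2 kinds of cadherin that bridge a desmosome. It lay at 26.9, 3.12, 90.6, 6.03 and 42.3 CPM after automatic denudation, at 92.1, 19.9, 241, 147 and 77.02 CPM after manual denudation and at 120.2, 48.2, 111, 235 and 115 CPM in vivo. In 4 of 5 automatic libraries DSC2 was below the lowest in vivo library, while automatic 3 lay among the in vivo and manual values, and the 2 lowest values were from low-detection libraries. The differences were log2 -1.77 ± 0.79 in automatic against manual (edgeR adjusted p = 0.9999) and -1.896 ± 0.79 in automatic against in vivo (edgeR adjusted p = 0.838). Manual differed from in vivo by -0.12 ± 0.77, and in vitro from in vivo by -1.01 ± 0.64. Without the low-detection libraries the first 2 of these values were -1.36 ± 0.48 (edgeR adjusted p = 1) and -1.099 ± 0.50 (edgeR adjusted p = 0.702), with means of 53.3 ± 33.2 CPM after automatic denudation (SD, n = 3), 139 ± 74.3 CPM after manual denudation (n = 4) and 115 ± 4.76 CPM in vivo (n = 3). The median of the summed trophectoderm markers was also lowest after automatic denudation. Of the 13 of these markers that were tested, 12 lay lower and 1 higher in automatic against manual. In automatic against in vivo 10 lay lower and 3 higher. Manual against in vivo also had 10 lower and 3 higher, with DSC2 at -0.12 ± 0.77 there. Of all 11578 genes tested, 6129 lay lower in automatic against manual, 6071 in automatic against in vivo and 5864 in manual against in vivo. Their part in the DSC2 values was not tested.

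Desmoglein 2, encoded by DSG2, is the other kind of desmosomal cadherin. It lay at 218, 105, 240.1, 593 and 230.3 CPM after automatic denudation, at 183, 429.9, 196, 430.1 and 293 CPM after manual denudation and at 232, 719.8, 207, 423 and 281 CPM in vivo, with overlap of all groups. In the libraries that were not low-detection, DSG2 averaged 229.5 ± 10.997 CPM after automatic denudation (n = 3), 275 ± 114 CPM after manual denudation (n = 4) and 240.0 ± 37.6 CPM in vivo (n = 3). DSC2 and DSG2 lie in the same cluster of desmosomal cadherin genes in the RefSeq gene order, with DSG3, DSG4, DSG1 and DSC1 between them. In spite of this, automatic 4 held the second lowest DSC2 value and the second highest DSG2 value of the 15 libraries.

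The plaque proteins of the desmosome join these cadherins to keratin. DSP, or desmoplakin, which binds the filaments, lay at 31.9, 37.1, 85.1, 101 and 26.2 CPM after automatic denudation, at 40.3, 53.7, 86.97, 68.98 and 61.96 CPM after manual denudation and at 55.3, 79.1, 84.7, 109 and 112 CPM in vivo. In 5 of 10 in vitro libraries it was below the lowest in vivo library, and none was above the highest. DSP differed by log2 -0.57 ± 0.44 for in vitro against in vivo (95% interval -1.48 to 0.34) and -0.15 ± 0.51 in automatic against manual. JUP, or plakoglobin, which serves desmosomes and adherens junctions alike, lay at 455, 502, 551, 61.2 and 243 CPM after automatic denudation, at 661, 92.5, 681, 200.4 and 192 CPM after manual denudation and at 925, 71.3, 559, 579 and 462 CPM in vivo. The 3 lowest JUP values came from low-detection libraries, 1 in each group. Its in vitro against in vivo difference was log2 -0.51 ± 0.54 (edgeR adjusted p = 0.999). PKP2, a plakophilin, had nearly equal means of 185 ± 60.1, 187 ± 54.1 and 180.0 ± 100.5 CPM in the automatic, manual and in vivo groups. PKP3, another plakophilin, had means of 6.19 ± 6.24, 14.4 ± 20.2 and 6.82 ± 5.65 CPM, and 0 counts in automatic 2, automatic 4 and manual 2.

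All 6 desmosome genes had fitted differences below 0 in automatic against manual, with a median log2 difference of -0.15 and 0 called, but scaling by library size alone placed 2 of them above 0. Without the low-detection libraries all 6 lay below 0, with a median of -0.33, while leaving out manual 3 or automatic 5 alone placed 3 above and 3 below.

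**Figure D2:**
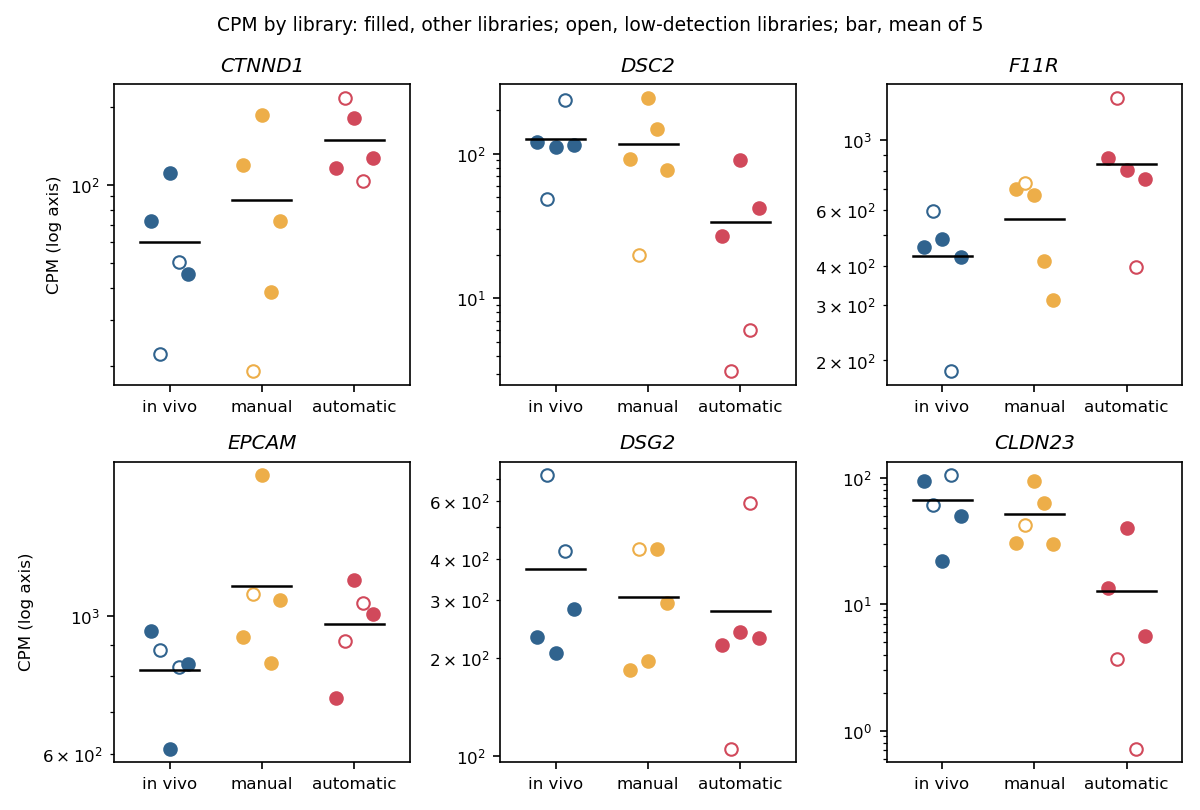
CPM (y axis, log scale) of 6 genes in the 15 libraries, by group (x axis), with filled points for the other libraries, open points for low-detection libraries and a bar at the mean of 5. CTNND1 and F11R lie above the highest in vivo library in 4 of 5 automatic libraries, DSC2 and CLDN23 lie below the lowest in vivo library in 4 of 5, and EPCAM and DSG2 overlap in all groups.

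Among tight junction genes, transcripts of the scaffold and membrane proteins were found in all groups, though not all of them in every library. F11R lay higher and CLDN23 lower in most automatic libraries than in vivo, with no call. TJP1, or ZO-1, the scaffold under the strands, lay at 31.3, 40.7, 36.5, 124 and 37.4 CPM after automatic denudation, at 33.2, 20.01, 46.9, 67.7 and 76.9 CPM after manual denudation and at 16.4, 57.4, 45.1, 42.03 and 33.5 CPM in vivo. The 1 value above 100 CPM was in automatic 4, a low-detection library. TJP1 differed by log2 0.40 ± 0.56 for in vitro against in vivo and by 0.14 ± 0.63 in automatic against manual, or by -0.66 ± 0.45 there without the low-detection libraries. TJP3, or ZO-3, had means of 76.7 ± 48.9, 84.8 ± 45.9 and 91.9 ± 75.003 CPM in the automatic, manual and in vivo groups. CGN, or cingulin, which links the strand to actomyosin, had means of 39.1 ± 31.1, 71.4 ± 19.6 and 54.2 ± 18.7 CPM in that order. The low values of both scaffolds were in low-detection libraries. Without those, CGN lay at 58.2 ± 21.6 CPM after automatic denudation (SD, n = 3), 69.7 ± 22.2 CPM after manual denudation (n = 4) and 67.2 ± 0.824 CPM in vivo (n = 3).

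Occludin and tricellulin are relatives that span the membrane at the borders between cells and at the corners where several cells meet. OCLN, which encodes occludin, lay at 423, 329.8, 342, 50.5 and 308 CPM after automatic denudation, at 251, 70.9, 419, 222 and 187 CPM after manual denudation and at 254, 146, 321, 199 and 195 CPM in vivo. The lowest value of each group was in a low-detection library, and the groups overlapped. OCLN differed by log2 0.34 ± 0.49 in automatic against manual (95% interval -0.69 to 1.37) and 0.21 ± 0.43 for in vitro against in vivo. MARVELD2, which encodes tricellulin, lies next to OCLN in the RefSeq gene order. Its means were 47.8 ± 22.6, 46.8 ± 27.1 and 46.2 ± 25.5 CPM in the automatic, manual and in vivo groups, so that the 3 groups differed by less than their spread. It was nearly absent from manual 2 at 0.7499 CPM and low in library in vivo 2 at 5.97 CPM, where OCLN was at 70.9 and 146 CPM.

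F11R encodes JAM-A, an adhesion molecule of the tight junction that recruits PAR proteins. It lay at 879, 1359, 805, 395 and 755 CPM after automatic denudation, at 698, 731, 668, 413 and 311 CPM after manual denudation and at 459, 596, 486, 185 and 427 CPM in vivo. In 4 of 5 automatic libraries F11R was above the highest in vivo and the highest manual library, and automatic 4 was below 4 of 5 in vivo libraries. The difference was log2 0.96 ± 0.37 in automatic against in vivo (edgeR adjusted p = 0.778) and 0.57 ± 0.37 in automatic against manual. Manual differed from in vivo by 0.39 ± 0.37, and in vitro from in vivo by 0.68 ± 0.33. Over the other 10 libraries the F11R means were 813 ± 62.3 CPM after automatic denudation (SD, n = 3), 523 ± 190.3 CPM after manual denudation (n = 4) and 457 ± 29.5 CPM in vivo (n = 3), and automatic against in vivo differed by 0.84 ± 0.32 (edgeR adjusted p = 0.608).

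Claudins are the membrane proteins that form the strands and set which ions pass. CLDN6, a claudin of embryonic epithelia, lay at 3199, 2551, 4066, 1543 and 2278 CPM after automatic denudation, at 4087, 2341, 6117, 1937 and 2618 CPM after manual denudation and at 5119.9, 1787, 3039, 3190.0 and 3116 CPM in vivo. Its lowest value of the 15 was in automatic 4 and its highest in manual 3, and the groups overlapped. CLDN6 differed by log2 -0.33 ± 0.35 in automatic against manual and -0.09 ± 0.30 for in vitro against in vivo (95% interval -0.72 to 0.54). CLDN4, a claudin of tight epithelia, had nearly equal means of 310.5 ± 208, 313 ± 264 and 299 ± 154 CPM in the automatic, manual and in vivo groups. CLDN3, its neighbour in the RefSeq gene order, lay at 7.001, 0.117, 23.4, 0 and 3.77 CPM after automatic denudation, at 35.8, 24.9, 86.3, 14.4 and 24.1 CPM after manual denudation and at 59.4, 1.15, 32.95, 76.2 and 21.4 CPM in vivo. In 4 of 5 automatic libraries CLDN3 was below every manual library, in vivo 2 was as low as these, and the unadjusted p over all libraries was above 0.05 in all 4 comparisons. CLDN3 had the largest fitted differences of the 36 genes, log2 -2.44 ± 1.33 in automatic against manual and -2.48 ± 1.33 in automatic against in vivo (edgeR adjusted p = 0.9999 and 0.97). When low-detection libraries were left out the first was -1.79 ± 0.77 (95% interval -3.45 to -0.12, edgeR adjusted p = 1) and the second -1.72 ± 0.80. Reads of claudin genes of similar sequence may have been divided among them by the count estimation, which makes their values less certain.

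CLDN23 was the claudin with the smallest p in automatic against manual and in automatic against in vivo. It lay at 13.5, 3.701, 39.98, 0.719 and 5.63 CPM after automatic denudation, at 30.4, 42.9, 95.2, 63.3 and 29.95 CPM after manual denudation and at 95.2, 61.7, 22.2, 105 and 50.4 CPM in vivo. In 4 of 5 automatic libraries it was below every manual and every in vivo library, and automatic 3 lay within both groups. The differences were log2 -2.04 ± 0.86 in automatic against manual (edgeR adjusted p = 0.9999) and -2.396 ± 0.88 in automatic against in vivo (edgeR adjusted p = 0.749). Manual differed from in vivo by -0.35 ± 0.83, and in vitro from in vivo by -1.38 ± 0.69. Without the low-detection libraries the first 2 values were -1.44 ± 0.72 (edgeR adjusted p = 1) and -1.49 ± 0.75 (edgeR adjusted p = 0.766), with means of 19.7 ± 18.003 CPM after automatic denudation (SD, n = 3) and 55.9 ± 36.8 CPM in vivo (n = 3). The summed trophectoderm markers had their lowest median in the automatic group, with ranges that overlapped between groups. As with DSC2, their part in the CLDN23 values was not tested.

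The remaining claudins were uneven between libraries, though not each of them in every group. CLDN7 had means of 15.1 ± 15.6, 15.6 ± 11.8 and 23.1 ± 15.4 CPM in the automatic, manual and in vivo groups. CLDN12 had means of 41.5 ± 28.8, 42.6 ± 14.2 and 18.1 ± 16.8 CPM, and its 2 lowest values were in libraries in vivo 2 and automatic 4. CLDN10, a claudin with ion-selective pores, ranged in vivo from 0 counts in library in vivo 4 to 190.2 CPM in library in vivo 2. After manual denudation it ranged from 0.1897 CPM in manual 3 to 82.6 CPM in manual 4, and after automatic denudation from 12.6 CPM in automatic 4 to 80.9 CPM in automatic 3. Without the low-detection libraries its means were 68.0 ± 12.0 (n = 3), 45.5 ± 35.8 (n = 4) and 25.8 ± 7.57 CPM (n = 3) in the automatic, manual and in vivo groups. CLDN1, a sealing claudin, had 0 counts in 4 libraries (automatic 2, automatic 5, manual 4 and in vivo 2) and reached 50.7 CPM in automatic 4. Of the 14 tight junction genes 7 lay higher and 7 lower in vitro than in vivo, with a median log2 difference of -0.00137, and 10 lay higher and 4 lower when scaled by library size alone.

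Over all libraries no polarity gene had an unadjusted p under 0.05, and 6 of 7 lay lower in vitro than in vivo. PRKCI encodes the atypical protein kinase C that is the enzyme of the PAR complex. It lay at 227, 278, 88.9, 151 and 240.0 CPM after automatic denudation, at 99.7, 203, 159, 172 and 219.8 CPM after manual denudation and at 176, 125, 136, 338 and 225 CPM in vivo. The groups overlapped, and PRKCI differed by log2 -0.12 ± 0.34 for in vitro against in vivo (95% interval -0.84 to 0.59) and 0.21 ± 0.40 in automatic against manual. PRKCZ, the related kinase, had means of 46.6 ± 43.7, 99.1 ± 47.99 and 102 ± 69.7 CPM in the automatic, manual and in vivo groups, with 1 count in automatic 2. The PAR scaffold PARD3 had means of 24.1 ± 16.4, 26.99 ± 19.8 and 49.9 ± 26.2 CPM. Its partner PARD6B had means of 11.7 ± 10.05, 20.98 ± 11.98 and 19.4 ± 5.37 CPM. Both had 0 counts in automatic 2, while PRKCI in that library was the highest of the automatic group. Without the low-detection libraries PARD3 lay at 35.1 ± 5.42 CPM after automatic denudation (SD, n = 3), 33.1 ± 16.5 CPM after manual denudation (n = 4) and 49.2 ± 3.19 CPM in vivo (n = 3). PRKCZ then had means of 76.1 ± 23.5, 109.8 ± 47.97 and 80.7 ± 27.2 CPM in the same order. Those of PARD6B were 16.2 ± 10.04, 21.3 ± 13.8 and 16.8 ± 3.37 CPM.

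The Crumbs complex consists of a membrane protein and the scaffolds beneath it. CRB3, the Crumbs protein of epithelia, lay at 59.6, 146, 110.3, 8.68 and 83.3 CPM after automatic denudation, at 102, 143, 126, 112 and 93.7 CPM after manual denudation and at 206, 152, 108, 98.1 and 127 CPM in vivo. The lowest of these, automatic 4, was a low-detection library, and the groups overlapped. CRB3 differed by log2 -0.76 ± 0.53 in automatic against in vivo (edgeR adjusted p = 0.9997), or by -0.79 ± 0.36 with low-detection libraries left out (95% interval -1.56 to -0.02, edgeR adjusted p = 0.693). PALS1, the scaffold that binds Crumbs, had means of 128 ± 76.8, 146 ± 111 and 117 ± 70.4 CPM in the automatic, manual and in vivo groups. PATJ, which binds PALS1, had means of 59.4 ± 33.9, 74.7 ± 31.8 and 91.01 ± 47.4 CPM. Its order turned when low-detection libraries were left out, with means of 84.1 ± 0.554 (n = 3), 80.04 ± 34.1 (n = 4) and 59.8 ± 22.5 CPM (n = 3), and its log2 difference for in vitro against in vivo went from -0.45 ± 0.48 to 0.46 ± 0.37. The median log2 difference of the 7 polarity genes for in vitro against in vivo was -0.45 with 1 higher and 6 lower, and 0.15 with 4 higher and 3 lower without the low-detection libraries. The direction of this class thus turned when those 5 libraries were left out together, and no single library turned it.

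The 2 highest values of the gap junction gene GJA1 were in low-detection libraries, and its direction against in vivo depended on them. GJA1 encodes connexin 43, whose channels couple neighbouring cells. It lay at 3.91, 2.299, 3.58, 32.7 and 1.91 CPM after automatic denudation, at 23.6, 4.08, 14.99, 8.93 and 3.79 CPM after manual denudation and at 2.22, 65.6, 2.6999, 1.51 and 0.8799 CPM in vivo. In vivo 2 and automatic 4 held the 2 highest values, far above the other libraries of their groups, and the other 4 in vivo libraries were below the lowest manual library. GJA1 differed by log2 -0.32 ± 1.32 in automatic against manual, or by -2.01 ± 1.03 without the low-detection libraries, with the same sign. For in vitro against in vivo it differed by -0.55 ± 1.12. Without in vivo 2 alone, in vitro against in vivo was 2.41, the opposite direction. Without all low-detection libraries it was 1.72 ± 0.96 (edgeR adjusted p = 0.712). Manual against in vivo likewise went from -0.39 ± 1.32 to 2.72 ± 1.07 (95% interval 0.41 to 5.03, edgeR adjusted p = 0.635), with means of 3.13 ± 1.07 CPM after automatic denudation (SD, n = 3), 12.8 ± 8.53 CPM after manual denudation (n = 4) and 1.93 ± 0.943 CPM in vivo (n = 3).

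**Figure D3:**
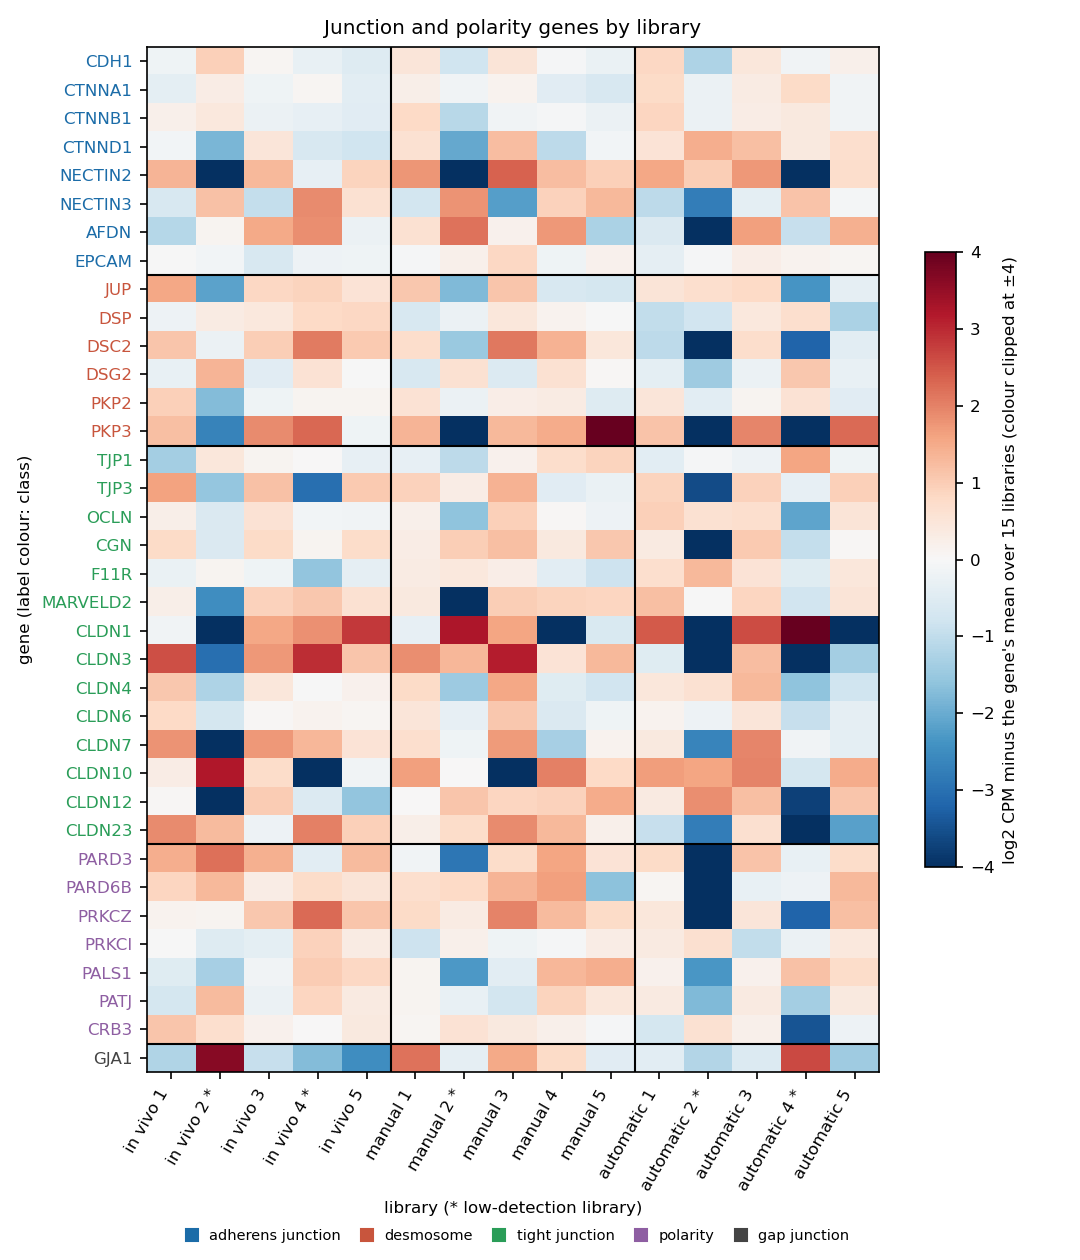
Log2 CPM of each gene minus its mean over the 15 libraries (colour, clipped at 4 above and below) for 36 genes (rows, label colour by class) in 15 libraries (columns, by group, low-detection libraries marked by an asterisk). Rows such as EPCAM and CTNNA1 are pale throughout, and dark blue cells cluster in the marked libraries, most of all in automatic 2 and automatic 4.

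The genes differed from each other in how far the libraries of a group lay apart. The SD of log2 CPM within groups (prior count 2) ran from 0.30 for EPCAM, 0.40 for CTNNA1 and 0.51 for CTNNB1 to 3.25 for CLDN10, 3.28 for PKP3 and 3.63 for CLDN1. Its median was 1.36 over the 36 genes and 2.21 over all genes tested, and 0.591 and 0.981 without the low-detection libraries. By class the median SD was 0.79 for adherens junction, 1.04 for desmosome, 1.71 for tight junction and 1.31 for polarity genes. The SD was smaller at high mean CPM over all genes tested, as the plot of SD against mean shows, and these medians do not take level into account. NECTIN2, PARD3 and PRKCZ had SDs of 2.78, 2.54 and 2.48, which came down to 0.52, 0.48 and 0.53 without the low-detection libraries. CLDN1 and CLDN10 kept SDs of 3.02 and 2.59 among the other 10 libraries.

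**Figure D4:**
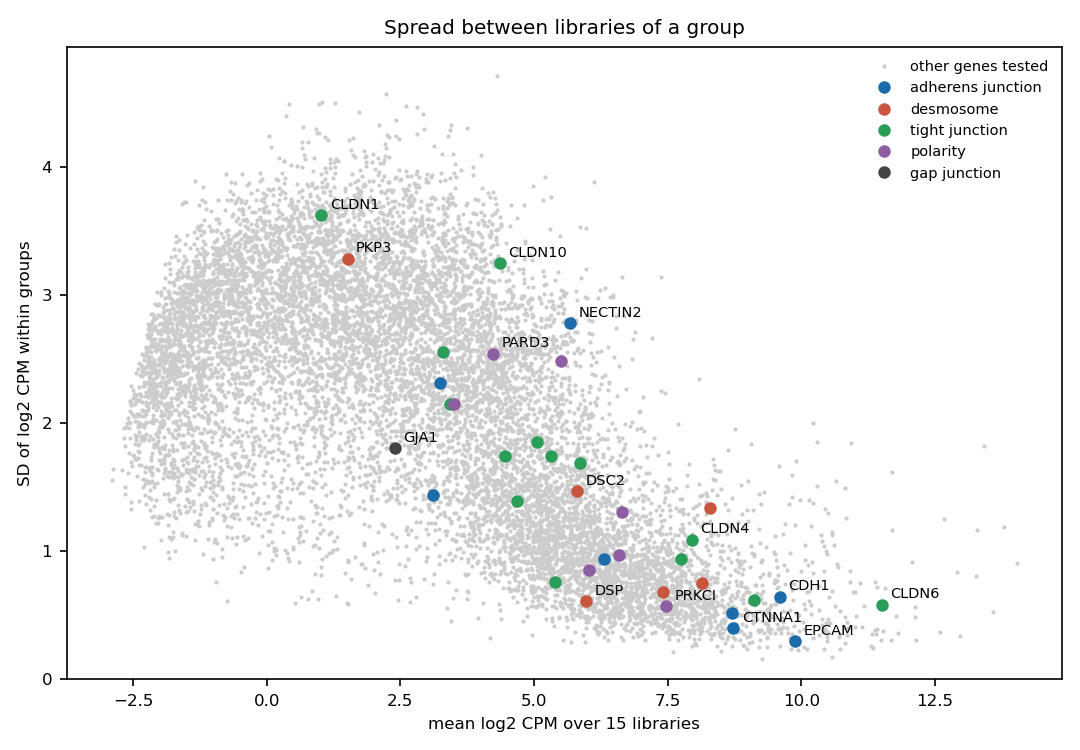
SD of log2 CPM within groups (y axis) against mean log2 CPM over 15 libraries (x axis) for the 36 genes, coloured by class, and all other genes tested in grey. EPCAM at 0.30 lies at the lower edge, CLDN6 at 0.58 lies furthest to the right of the 36, and CLDN1 at 3.63 lies highest of the 36.

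Of the 540 values (36 genes in 15 libraries) 12 were 0 counts, and 10 of these 12 were in low-detection libraries. A count of 0 allows up to 3 counts, which in these libraries is 0.0807 to 0.2296 CPM, for counting error alone. In 27 of the 36 genes every library had 10 or more counts. For 30 genes the lowest of the 15 libraries was a low-detection library, automatic 2 for 14 genes and automatic 4 for 8. For 17 genes the highest library was a low-detection library too, in vivo 2 for 6 genes. Manual 3, which was not a low-detection library, held the highest value of 7 genes, CLDN3, CLDN4 and CLDN6 among them. The median of centred log2 CPM over the 36 genes was -0.96 in automatic 2 and -0.40 in automatic 4, against -0.60 and -1.26 over all genes tested, and it was 0.90 in manual 3, against 0.36.

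Among genes of the same structures outside the 36, 0 were called in any comparison. Of 47 other junction genes 46 were in the table and 30 were tested, of 30 other polarity and cortex genes 26 were tested, and of 22 regulators of epithelial identity 18 were tested. For in vitro against in vivo the other junction genes lay higher in 14 and lower in 16, with a median log2 difference of -0.04, the other polarity genes higher in 15 and lower in 11 (0.17) and the regulators higher in 8 and lower in 10 (-0.09). At an unadjusted p under 0.05 there were 2 of the 30, 1 of the 26 and 2 of the 18, where 6.13% of all genes had such a p. CLDN8, a claudin, lay at 38.9, 68.5, 22.4, 35.8 and 1.91 CPM in vivo and had 0 counts in 5 of 10 in vitro libraries (log2 -3.58 ± 1.598, edgeR adjusted p = 0.792). Without the low-detection libraries its means were 3.37 ± 2.92 (n = 3), 4.82 ± 8.23 (n = 4) and 21.1 ± 18.5 CPM (n = 3) in the automatic, manual and in vivo groups. CDC42, the small GTPase that activates the PAR complex, had means of 185 ± 45.4, 283 ± 188 and 129 ± 63.2 CPM in the automatic, manual and in vivo groups. It differed by log2 1.13 ± 0.43 in manual against in vivo (edgeR adjusted p = 0.9997) and 0.83 ± 0.38 for in vitro against in vivo. The highest of these CDC42 values was in manual 2, a low-detection library, at 616 CPM. For CDC42, and for ST14 below, differences without the low-detection libraries are not given.

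Among the regulators, ST14 encodes matriptase, a membrane protease of epithelia. It lay at 20.003, 6.78, 39.5, 0.0553 and 25.1 CPM after automatic denudation, at 36.8, 33.7, 125, 39.9 and 28.2 CPM after manual denudation and at 77.2, 255, 73.8, 72.2 and 115 CPM in vivo. All 5 automatic libraries lay below all 5 in vivo libraries, which held for 2.07% of all genes in either direction, and manual 3 was the 1 in vitro library above the lowest in vivo library. ST14 differed by log2 -2.697 ± 0.94 in automatic against in vivo (edgeR adjusted p = 0.693) and -1.93 ± 0.73 for in vitro against in vivo (edgeR adjusted p = 0.694).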

How the data were processed

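The table deposited by the authors holds estimated counts per gene symbol for 15 libraries, in whole numbers, and rounding changed 0 values. The submitters' processing notes name FastQC, fastp and kallisto, without versions or roles. Which transcripts and build served as reference, and how molecular identifiers were used, was not given in the sources used here. The libraries came from a stranded poly(A) kit, per the labels' protocols. A line with no gene name (1) was left out, and the remaining 17259 genes were filtered with edgeR 4.0.16 (filterByExpr, 11578 kept) in R 4.3.3. Counts were scaled by the trimmed mean of M values (TMM), and all 15 libraries entered 1 robust quasi-likelihood fit of the 3 groups, with Benjamini-Hochberg adjusted p-values over all genes tested. A call was an adjusted p under 0.05, SEs were taken from the F statistic of that test, and ± in a CPM value is the SD. Replicate libraries of a group all differed by more than sampling noise (lowest chi-square per degree of freedom 184). The alternatives were other scalings and filters, limma 3.58.1, DESeq2 1.42.0, pairwise fits, a replicate block and leaving out each library. The scripts were tested on simulated data.

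The 36 genes, the other gene lists and the tests were chosen with earlier results of these data known. Values in every library are given for genes with an unadjusted p under 0.05, for the genes with the highest mean CPM of a class and for CDH1, EPCAM, OCLN, TJP1 and DSP. From the other junction, polarity and regulator lists the gene with the smallest p of a comparison is given where that p was under 0.05. DSG2, CLDN3 and CRB3 were given in full, and differences of CTNNA1 and PATJ were added, after their values were seen. Of the 36 symbols 36 matched RefSeq names of the ARS-UCD2.0 assembly, as did 17059 of all genes, and this assembly was used for names and gene order only. Reads of related genes and of overlapping genes may have been divided between them by the count estimation.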

Additional observations from a re-analysis of the deposited data

Results flagged for a closer look

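Dixon's ratio was taken on log2 CPM (prior count 2) in 108 sets of 5 libraries (36 genes in 3 groups). In 19 sets 1 library lay so far from the other 4 of its group that the gap passed the 95% critical value. The values below are given in CPM, a scale on which low values lie closer together. Chance alone gives about 1 in 20 such sets, but the sets share the same 15 libraries and are not independent. Of the 19 outlying values so found 18 were in low-detection libraries, and 16 lay on the low side. In the automatic group, automatic 2 was lowest for TJP3 at 4.79 CPM, for CGN at 0.468 CPM, for PALS1 at 19.8 CPM, and for PARD3 and PARD6B at 0 CPM. Automatic 4 was lowest for NECTIN2 at 0.774 CPM, for OCLN at 50.5 CPM, for CLDN10 at 12.6 CPM and for CLDN12 at 1.60 CPM. It was highest for TJP1 at 124 CPM and for GJA1 at 32.7 CPM. The other 4 automatic libraries lay between 308 and 423 CPM for OCLN and between 1.91 and 3.91 CPM for GJA1.

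In the manual group, manual 2 was lowest for NECTIN2 at 2.72 CPM and for MARVELD2 at 0.750 CPM. Manual 3, which held the 1 outlying value outside the low-detection libraries, was lowest for CLDN10 at 0.190 CPM, against 20.6 to 82.6 CPM in the other manual libraries. In the in vivo group, library in vivo 2 was lowest for JUP at 71.3 CPM, for MARVELD2 at 5.97 CPM and for CLDN7 at 0.153 CPM. It was highest for GJA1 at 65.6 CPM, against 0.880 to 2.70 CPM in the other in vivo libraries. Library in vivo 4 was lowest for F11R at 185 CPM, against 427 to 596 CPM in the others.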

How the results depend on the processing

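None of the 36 genes was called under any of the 10 alternatives or in the 15 fits that left out 1 library each (lowest adjusted p = 0.126, CLDN23 in automatic against in vivo, DESeq2). Over the 36 genes and 4 comparisons, 3212 of 3564 log2 values under other settings kept their sign, and over the 45 log2 differences given above 1059 of 1108 did. Over all genes, automatic against in vivo had 2 calls, against 87 with DESeq2, 9 with limma-voom, 0 with library size alone, 1 with no filter, 1 with only the groups compared, 9 without the low-detection libraries and 0 to 4 without 1 library. For in vitro against in vivo there were 2 calls, against 87 with DESeq2, 15 with limma-voom, 0 with library size alone, 7 with the number of genes detected as a covariate, 7 without the low-detection libraries and 0 to 7 without 1 library. Automatic against manual had 0 calls, against 9 with DESeq2 and 1 without the low-detection libraries. Manual against in vivo had 0 calls, against 44 with DESeq2, 1 with limma-voom and 3 without the low-detection libraries. Why these counts differ was not tested. The fits without the low-detection libraries and with genes detected as a covariate were chosen after seeing the data.

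The replicate numbers of the labels were not taken as pairs, since not every pair reached the correlation of 0.1 asked for: the correlation of same-numbered libraries ran from 0.00137 to 0.38, and 8 of 15 pairs exceeded 0.1. As a hint from the data in the other direction, 8 of the 15 libraries correlated best with a library of their own number in another group. Low detection also went with the number: library 2 was a low-detection library in every group, and library 4 in the automatic and in vivo groups. No library of another number was. The evidence on pairing is thus mixed, and whether the number marks a shared batch was not tested. With the replicate block, all genes called were 7 in automatic against in vivo, 8 for in vitro against in vivo and 1 in manual against in vivo, the log2 difference for in vitro against in vivo was -0.073 for CDH1 and 0.97 for GJA1, that in automatic against in vivo -0.0224 for CDH1, that in manual against in vivo 1.44 for GJA1, and 0 of the 36 genes were called.

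Among the log2 differences given above, signs turned as follows. For in vitro against in vivo, CDH1 (0.01) was -0.0202 with size factors by relative log expression, -0.0202 with DESeq2, -0.00215 with a minimum of 1 CPM in 5 libraries and -0.0931 with the covariate. GJA1 (-0.55) was 0.23 with library size alone, 0.95 with limma-voom, 0.46 with the covariate and 1.72 without the low-detection libraries, CLDN6 (-0.09) was 0.0272 with library size alone, and PATJ (-0.45) was 0.46 without the low-detection libraries. CDH1 in automatic against in vivo (0.06) was -0.0323 with the covariate. DSC2 in manual against in vivo (-0.12) was 0.018 with library size alone and 0.26 without the low-detection libraries, and GJA1 (-0.39) was 0.46 with library size alone, 1.51 with limma-voom, 1.23 with the covariate and 2.72 without the low-detection libraries. TJP1 in automatic against manual (0.14) was -0.064 with limma-voom, -0.0863 with the covariate and -0.66 without the low-detection libraries. Leaving out 1 library in turn gave, in automatic against manual, -0.10 to 0.32 for CDH1, -0.50 to 0.00543 for CLDN6, -0.45 to 0.0547 for DSP, -1.90 to 0.18 for GJA1 and -0.41 to 0.36 for TJP1. For in vitro against in vivo it gave -0.11 to 0.33 for CDH1, -0.25 to 0.13 for CLDN6, -1.34 to 2.41 for GJA1 and -0.25 to 0.17 for PRKCI, in automatic against in vivo -0.15 to 0.38 for CDH1, and in manual against in vivo -0.59 to 0.24 for DSC2 and -0.87 to 2.602 for GJA1. The cause was not tested. Library size alone moved the median of all genes for in vitro against in vivo from -0.04 to 0.10. With 5 libraries a group and 5 of low detection, differences under 2-fold could be bounded for few of the 36 genes.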
